A study of Mus musculus with 6 samples.

Results

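The T cell receptor loci were examined as 358 CpG cytosines, of 1548852 measured in the series, that were listed in at least 2 KO and 2 WT libraries and lay in 3 intervals of the build GRCm38. The Tcra/Tcrd interval (chr14:52420000-54230000) held 260 of them, the Tcrb interval (chr6:40880000-41570000) 73 and the Tcrg interval (chr13:19170000-19360000) 25. Enhanced reduced representation bisulfite sequencing (ERRBS) compared spleen naive B cells of Tet2 knockout mice (KO, 3 libraries) with those of wild-type mice (WT, 3 libraries), all of the strain C57BL/6. TET2 is an enzyme that oxidises methylated cytosine and so takes part in removing the mark, and the question was how B cell methylation differs without it. The labels do not describe the Tet2 allele or say whether each library came from its own mouse, so p-values measure the spread between libraries, part of which may be technical. They name naive B cells for every sample, whereas the text on the series' design speaks of germinal centre B cells; groups here follow the labels.

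T cell receptor genes are assembled in developing T cells by V(D)J recombination, in which the RAG recombinase joins a V segment, in some chains a D segment, and a J segment upstream of a constant (C) region. Tcra encodes the alpha chain, Tcrb the beta chain and Tcrg the gamma chain; Tcrd, for the delta chain, lies within Tcra. B cells assemble the immunoglobulin loci (Igh, Igk and Igl) instead, and their T cell receptor loci are known to remain largely unrearranged.

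ERRBS reads fragments cut by the enzyme MspI at CCGG. Whether the CCGG content of the loci limited what was measured was not tested. A pair of promoters on different chromosomes gives an example of a CpG-poor window inside the loci and a CpG-dense one outside. They are given 5′ to 3′ from RefSeq (GRCm38.p6), each from 250 bases before to 50 bases after the gene start, with every CpG in capitals. The first belongs to Prss2, a trypsinogen gene inside the Tcrb interval (chr6:41521526-41521825, plus strand). The other belongs to Dad1, a gene of protein N-glycosylation beyond the C region Trac and outside the interval (chr14:54253880-54254179, minus strand).
Prss2: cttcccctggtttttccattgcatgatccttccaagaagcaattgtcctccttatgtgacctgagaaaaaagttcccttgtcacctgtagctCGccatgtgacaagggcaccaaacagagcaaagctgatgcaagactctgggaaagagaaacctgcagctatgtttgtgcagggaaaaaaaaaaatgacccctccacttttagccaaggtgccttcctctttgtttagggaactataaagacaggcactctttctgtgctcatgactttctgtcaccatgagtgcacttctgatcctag
Dad1: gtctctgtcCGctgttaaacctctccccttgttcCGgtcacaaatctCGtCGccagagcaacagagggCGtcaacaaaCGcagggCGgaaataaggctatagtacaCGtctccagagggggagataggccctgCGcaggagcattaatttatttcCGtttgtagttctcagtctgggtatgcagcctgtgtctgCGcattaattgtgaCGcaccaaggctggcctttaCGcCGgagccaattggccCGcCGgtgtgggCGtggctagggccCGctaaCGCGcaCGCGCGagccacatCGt

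The Prss2 promoter has 1 CpG and 0 CCGG, and that of Dad1 24 CpGs and 3 CCGG. The window with the most CpGs inside the intervals, that of 1700074P13Rik, has 8. CCGG, which reads the same on both strands, occurred in 4 of the 18 windows of this length that RefSeq transcript starts give inside the intervals (22.2%), against 52.8% of all 32817 such windows. Of the 18, 16 begin at an end of the annotated gene and 2 at a start inside it. No CpG at all was present in 10 of the 18 (55.6%), against 5.43% of all promoters. None of the 18 promoters held a measured cytosine, the 4 with CCGG included, and none belongs to a V, D, J or C segment. The Dad1 promoter held 24 cytosines listed in all 6 libraries, at 0.128% ± 0.144 in KO and 0.228% ± 0.0880 in WT (SD, n = 3 each).

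Coverage of the segments themselves was thin. Of 270 V, D, J and C segments annotated in the intervals, pseudogene segments included, 9 held a measured cytosine and 46 had one within 1 kb. Those 9 were the V segments Trav4d-2, Trav4-2, Trdv2-2 and Trbv21, the J segments Traj41, Trbj1-3, Trbj2-2 and Trbj2-7, and the C region Trac. The C regions Trbc1, Trbc2, Trdc and Trgc1 to Trgc4 had no measured cytosine within 1 kb. Each measured cytosine of the loci had a median of 5 measured cytosines within 250 bases, itself included, against 22 in the rest of the genome.

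Each library listed between 1551481 and 1626375 cytosines in all, each with at least 10 reads, at a median coverage between 92 and 110 reads. In Tet2, the targeted gene, 6 cytosines in chr3:133486189-133486297 were picked for being listed in every WT library and in no KO library. They had 28 to 71 reads in the WT libraries. Another 111 cytosines of Tet2 were listed in all 6 libraries. How often cytosines elsewhere were listed in WT alone was not counted. The labelled cell type was checked on gene bodies with 1 kb on each side. Cd79a and Cd79b, the B cell receptor signalling subunits, had 3.44% ± 4.24 and 1.86% ± 1.29 methylation in KO, against 2.96% ± 1.13 and 1.08% ± 0.200 in WT (SD, n = 3 each). Among T cell genes, Cd3g was at 86.4% ± 2.65 in KO and 84.2% ± 4.35 in WT, and Cd8a at 92.6% ± 3.05 in KO and 93.5% ± 0.998 in WT (SD, n = 3 each). Cd3d, Cd3e and the B cell gene Ms4a1 had no cytosine measured in all 6 libraries.

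Libraries stood apart in how many reads they gave at Tcra/Tcrd. WT 1 listed 116 of the 260 cytosines there (44.6%), whereas the other 5 libraries listed between 241 and 259. Over all measured cytosines of the genome WT 1 listed 98.0%, and over those with at most 4 measured cytosines within 250 bases, called sparse here, 93.9%. The stretch chr14:53100001-53800000, chosen after its values were seen, held 59 of the cytosines, of which WT 1 listed 1 and the other libraries between 51 and 59. The median number of reads per cytosine of Tcra/Tcrd, with unlisted cytosines at 0 and divided by the median coverage of the library, was 0.446, 0.775 and 0.462 in KO 1, KO 2 and KO 3, against 0, 0.418 and 0.644 in WT 1, WT 2 and WT 3. KO 2 and WT 3 were thus highest, WT 1 lowest, and the remaining 3 lay between.

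Within 1 Mb on either side of Tcra/Tcrd, sparse cytosines had relative depths of 0.717, 0.838 and 0.646 in KO 1 to KO 3 and 0.667, 0.586 and 0.842 in WT 1 to WT 3. KO 2 and WT 3 were again highest there, but WT 1 lay among the others. At Tcrb WT 1 was again lowest, at 0.414 against 0.873 to 1.14 in the other libraries, and at Tcrg it was at 0.293 against 0.673 to 0.990. WT 1 was lowest too at the immunoglobulin loci (0.364, against 0.600 to 0.717) and at sparse cytosines elsewhere (0.444, against 0.518 to 0.824). KO 2 and WT 3 also shared absences. Of the 260 cytosines of Tcra/Tcrd, 16 were listed in every library except these (6.15%), against 0.0756% of all measured cytosines. By 1 Mb windows of chromosome 14, read after the values were seen, the share was 2.28% to 7.57% in each window between 45 and 53 Mb, 0 of 112 cytosines between 53 and 54 Mb, 3.31% between 54 and 55 Mb and 0.158% between 55 and 56 Mb. It was also 1.60% to 4.12% in each window between 33 and 38 Mb, and 0 in each between 38 and 45 Mb. Below 33 Mb it was 1.51% between 25 and 26 Mb, 2.15% between 28 and 29 Mb and at most 0.655% in any other window. Past 56 Mb the highest share was 1.11%, or 1 of 90 cytosines. On other chromosomes it was 0.0494%. It crosses the genotypes, with 1 KO and 1 WT library on its side. Whether the mice differed in the DNA sequence or copy number of this stretch was not tested, and differences of means and of tiles that rest on Tcra/Tcrd are given with and without WT 1.

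**Figure D1:**
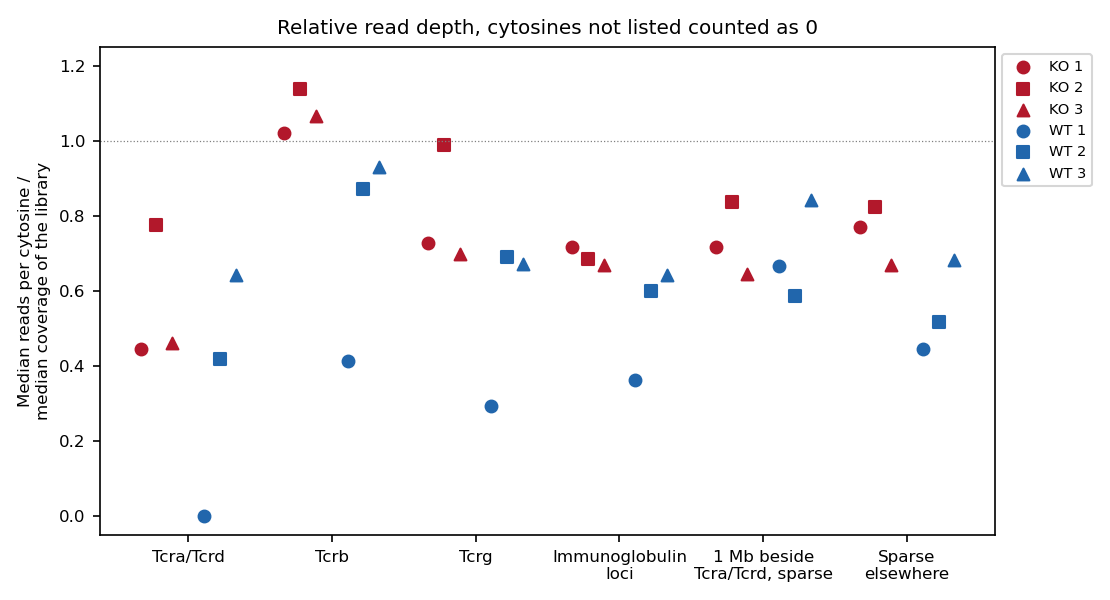
Read depth by library (KO 1 to KO 3 left, WT 1 to WT 3 right in each group): the median number of reads per cytosine, with unlisted cytosines as 0, divided by the median coverage of the library, so that 1 (dotted) is the library's own median. At Tcra/Tcrd KO 2 (0.775) and WT 3 (0.644) are highest and WT 1 is at 0; beside the locus WT 1 is at 0.667.

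The loci were highly methylated in both genotypes. The median level of the 358 cytosines, each averaged over the libraries that listed it, was 95% (quartiles 89.0% and 97.7%). In all, 260 were at 90% or more, 57 between 70% and 90%, 19 between 30% and 70%, 5 between 10% and 30%, and 17 under 10%. The median was 95.2% at Tcra/Tcrd, 92.7% at Tcrb and 96.1% at Tcrg. Sparse cytosines elsewhere had a median of 94.2% and the 753 cytosines of the immunoglobulin loci 95%, whereas all cytosines outside both sets of loci, most of them in CpG-dense DNA, had a median of 1.97%. By position, the 30 cytosines in or within 1 kb of V segments had a median of 96.9% and the 47 in or within 1 kb of other genes 94.4%. The 229 between genes had 95% and the 52 in or within 1 kb of D, J and C segments 92.4%.

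**Figure D2:**
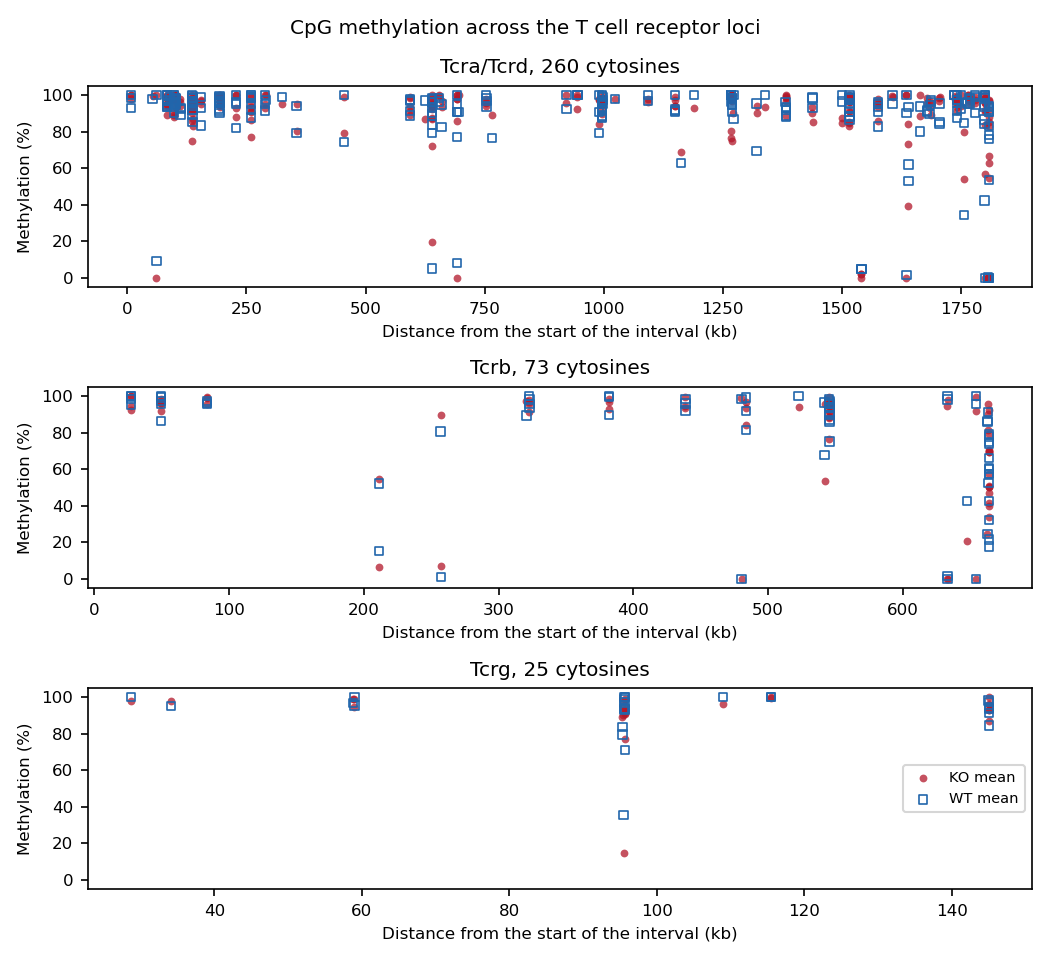
Methylation (%) of each measured cytosine along the 3 intervals, by distance from the start of the interval (kb): filled red circles are means over the KO libraries that list the cytosine, open blue squares those over WT libraries. Most cytosines lie above 90% in both genotypes; lower ones are scattered and also gather at the high-coordinate end of Tcrb, at the Trbj2 cluster, and at that of Tcra/Tcrd, beyond Trac.

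Of the V segments, Trbv21 of the beta chain held 4 cytosines listed in all 6 libraries, with means between 91.1% and 97.6% in KO and between 93.5% and 100% in WT. Trav4-2 of the alpha chain held 3, between 95.4% and 98.0% in KO and between 95.2% and 99.0% in WT, none of them listed in WT 1. Trdv2-2, which serves the delta chain, was lower. Its 2 cytosines (chr14:53960999-53961003) had 0 reads with C of 32 in KO 1 and 4 of 92 in KO 2, against 0 of 22 in WT 2 and 8 of 84 in WT 3. The counts sum both cytosines, which share reads. Those are levels of 0% and 4.35% in KO and 0% and 9.52% in WT; 0 of 32 and 0 of 22 allow levels of up to 9.38% and 13.6%. The level was low in the 4 libraries that listed Trdv2-2, which KO 3 and WT 1 did not. Beside Trbv10, a pseudogene V segment, the cytosine at chr6:41091337 (minus strand) was at 2.73%, 10.7% and 5.45% in KO and 29.6%, 9.68% and 6.17% in WT. WT 1 alone stood high, but on 27 reads, against 62 to 178 in the other libraries.

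The J segments of Tcrb were the part of the loci most often at intermediate levels. Of 21 cytosines at the D, J and C segments of Tcrb, 9 lay between 30% and 70% (42.9%), against 5.31% of all 358. Outside the T cell receptor and immunoglobulin loci, 6.83% of sparse cytosines and 3.75% of all cytosines did. The median of the 21 was 65.7%, against 96.4% for the 31 at the D, J and C segments of Tcra/Tcrd and 95.2% for the 52 other cytosines of Tcrb. These shares describe cytosines that share fragments and reads, and no test was made of them. All 9 lay at Trbj2-6, a pseudogene J segment, and Trbj2-7, in a stretch of 14 cytosines (chr6:41543568-41543949). The pooled reads of this stretch were 65.1%, 56.4% and 55.4% methylated in KO, against 56.2%, 64.6% and 60.4% in WT. The genotypes overlapped there, with a difference of -1.97 percentage points and an adjusted p of 0.933 in the quasi-binomial test over 1 kb tiles. The sign depended on the weighting. With each of the 14 cytosines weighted equally, KO was at 58.8% and WT at 55.3%, 3.43 points higher in KO (two-sided exact permutation p = 0.5). Within the stretch, single cytosines averaged between 28.8% and 83.7% over the 6 libraries.

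Just before Trbj2-1, the cytosine at chr6:41542692 was at 28.6%, 22.8% and 23.0% in KO and 20.9%, 27.3% and 25.3% in WT, a low level shared by every library. Inside Trbj2-2 the cytosine at chr6:41542965 was at 95.6% ± 7.55 in KO and 91.3% ± 3.50 in WT (SD, n = 3 each). Methylation thus differed along the cluster within each library. Over all 18 cytosines of the cluster the mean was 61.9% ± 4.44 in KO and 59.1% ± 4.41 in WT (SD, n = 3 each), a difference of 2.88 points (two-sided exact permutation p = 0.5).

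**Figure D3:**
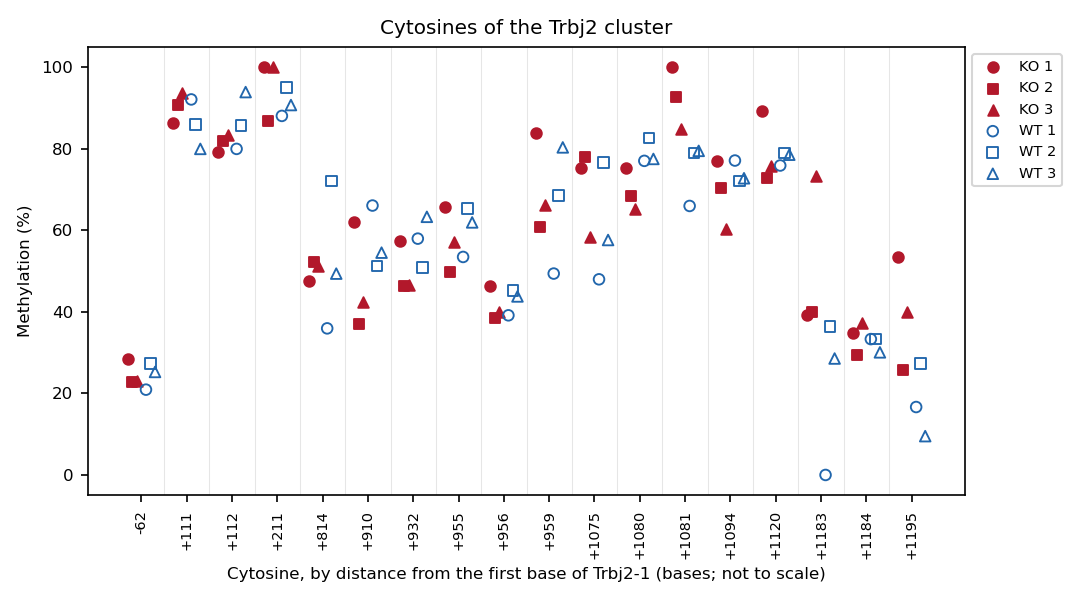
Methylation (%) of the 18 measured cytosines of the Trbj2 cluster in each library, KO symbols filled and left, WT symbols open and right. Cytosines are in order of distance from the first base of Trbj2-1 and are not drawn to scale. The cytosine before Trbj2-1 lies between 20.9% and 28.6%, the next 3 at 79.3% or above, and those at Trbj2-6 and Trbj2-7 spread over intermediate levels in both genotypes.

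Inside Trbj2-7, the strands of 1 CpG differed between genotypes in opposite directions. The plus strand (chr6:41543834) was at 75.2%, 68.4% and 65.2% in KO and 77.1%, 82.7% and 77.5% in WT, lower in KO with no overlap. The minus strand (chr6:41543835) was at 100%, 92.8% and 85.0% in KO and 66.0%, 78.9% and 79.5% in WT, higher in KO with no overlap. Neither passed the test, with adjusted p of 0.778 and 0.744 (quasi-binomial test over all cytosines). This pair was singled out after its values were seen.

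At the 3′ part of Tcra, the C region Trac (chr14:54220521-54224198) held 2 cytosines, at 91.7% ± 8.33 and 98.2% ± 1.98 in KO (n = 3) and 100% ± 0 and 98.4% ± 2.21 in WT (SD, n = 2, since WT 1 did not list them). Beyond it, 3395 bases past its end by coordinate, lay 5 unmethylated cytosines (chr14:54227593-54227726). Reads with C numbered 0 of 588, 0 of 608 and 2 of 847 in KO, against 0 of 569, 1 of 972 and 0 of 841 in WT. The highest level, in KO 3, was 0.236% (95% Wilson interval 0.0648% to 0.857%, counting error only), and 0 reads of 569 allow up to 0.527%. The Tcra enhancer is known to lie downstream of the constant region, and whether these cytosines belong to it is not annotated in the sources used here. Farther on, the 3 cytosines of the tile chr14:54229001-54230000 that all libraries listed had 69.5%, 76.6% and 76.4% of reads methylated in KO and 76.1%, 85.0% and 71.4% in WT. The 5 unmethylated cytosines thus lay beside methylated ones in all 6 libraries. Cytosines so close together share reads, so the intervals and limits are narrower than independent molecules would allow.

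Between the J segments and Trac, the cytosine at chr14:54219659 was at 42.4%, 95.2% and 32.9% in KO 1 to KO 3, against 0%, 39.3% and 87.5% in WT 1 to WT 3. KO 2 and WT 3 were highest and WT 1 lowest, as in the relative read depth of the locus. It was the only one of 238 cytosines of Tcra/Tcrd listed in both KO 2 and WT 3 where these 2 libraries stood at least 20 points above every other library, and none stood as far below. That is 0.420%, against 0.0317% above or below among all measured cytosines listed in both libraries. The neighbour of chr14:54219659 at chr14:54219945 (minus strand) was at 0% in KO 1, KO 3, WT 1 and WT 2 and was not listed in KO 2 or WT 3. Beside Traj41, the cytosine at chr14:54176472 was at 58.6%, 58.3% and 45.3% in KO and 5%, 32.1% and 66.0% in WT. In this assay a T in the DNA is counted as an unmethylated cytosine, and a part of sequence differences in these values was not tested.

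Where both strands of a CpG were measured, the levels mostly matched. Of 29 such CpGs of the loci listed on both strands, 24 differed by at most 10 points and the median difference was 3.79 points. At 3 CpGs the strands differed by more than 50 points. Of these, 2 lay in Tcrb, with Prss2 as the nearest gene: at chr6:41513080 the plus strand averaged 96.3% and the minus strand 0.758%, and at chr6:41513128 the plus strand was at 0% and the minus strand at 99.0%. The other, at chr14:53060102, averaged 13.9% on the plus strand and 97.5% on the minus strand. In Trbj1-3, likewise, a minus-strand cytosine just outside the segment (chr6:41534312) was at 0% in all 6 libraries, while 2 inside it averaged 93.9% and 99.6%.

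Tcrg had no measured cytosine in or within 1 kb of a V, J or C segment. All 25 lay between segments, most of them nearest to the C region Trgc3 or the J segment Trgj2, and 19 were at 90% or more, 5 between 70% and 90% and 1 lower. The lowest was chr13:19265497 (minus strand), 2100 bases past Trgc3, at 27.0%, 16.7% and 0% in KO and 83.9%, 22.4% and 0% in WT. The libraries scattered at this site within each genotype, WT 1 being the highest. The 9 cytosines of its 1 kb tile listed in all libraries pooled to 88.6%, 86.7% and 88.0% in KO and 94.7%, 85.1% and 85.2% in WT, with overlap.

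No cytosine or tile of the T cell receptor loci was called between KO and WT. A call needed an adjusted p under 0.05 (Benjamini-Hochberg over the genome) and a difference of at least 10 points. With 0 of 358 cytosines called, the background was 5 higher in KO of 1548852, or 0.000323%, and 0 lower. With 0 of 26 tiles called, it was 122 higher in KO of 108943, or 0.112%, and 0 lower. The smallest adjusted p in the loci was 0.723 for cytosines and 0.723 for tiles. limma on log2((C + 2)/(T + 2)) likewise called 0 cytosines and 0 tiles of the loci. At an unadjusted p under 0.05 the quasi-binomial test had 28 cytosines higher and 11 lower in KO (limma 33 and 11), against backgrounds of 3.97% and 2.38%, and the background in either direction was 6.35%. Leaving out 1 library moved these counts to between 12 and 23 higher and between 2 and 14 lower. They were 18 and 10 of 338 tested cytosines without WT 1, and 17 and 14 of 328 without KO 1. Fewer could be tested without WT 2, at 14 and 3 of 186, and without WT 3, at 12 and 2 of 204. In either direction the shares were 8.28% without WT 1, 9.14% without WT 2, 6.86% without WT 3 and 9.45% without KO 1. Over the genome they were 4.96%, 5.17%, 5.06% and 6.50% in the same order. With all 6 libraries the loci had 10.9%, against 6.35%. No tile of the loci reached this p by either tool (0 of 26), against 5.73% of all tiles higher and 1.46% lower in KO, or 7.19% in either direction.

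Since the loci are mostly methylated, cytosines of 70% or more elsewhere are the closer background. Among 317 such cytosines of the loci, 26 were higher (8.20%) and 10 lower (3.15%) in KO at an unadjusted p under 0.05, against 6.09% and 3.33% of those elsewhere. Of 185 cytosines listed in all 6 libraries, the genotypes did not overlap at 15 that were higher and 5 that were lower in KO, against backgrounds of 2.97% and 2.25%. At tiles the genotypes overlapped in all 26, whereas over all tiles the genotypes stood apart at 8.34% with KO higher and 3.36% with KO lower. Limited to those of 70% or more, 13 of 156 were higher without overlap (8.33%) and 4 lower (2.56%), against 5.37% and 3.37% elsewhere. The smallest p, singled out after its values were seen, was at chr14:54084625 (minus strand) in the long noncoding RNA gene Gm30275. This cytosine was at 100%, 100% and 100% in KO and 100%, 91.5% and 90.1% in WT, 8.03 points higher in KO with an adjusted p of 0.723. WT 1 was level with KO there, so the genotypes touched.

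Of the tiles of Tcra/Tcrd, the 2 with the smallest p had values of WT 1 below the rest. The first (chr14:52531001-52532000, 35870 bases from the nearest V segment, Trav2) was at 94.3%, 96.6% and 97.4% in KO and 86.2%, 91.9% and 96.8% in WT, 4.75 points higher in KO. The other (chr14:53802001-53803000, 3662 bases from Trav17) was at 97.7%, 97.8% and 95.7% in KO and 86.4%, 94.5% and 96.1% in WT, 4.03 points higher in KO. The genotypes overlapped in both, and the adjusted p were 0.723 and 0.729 (quasi-binomial test). Without WT 1 the differences were 2.05 and 1.51 points. The largest loss among tiles there, beyond Trac at chr14:54229001-54230000, was -3.61 points with an adjusted p of 0.939, and -4.06 without WT 1. In Tcrb the tile of Trbj1-3 had the largest loss, -3.10 points, and a tile near Try10 the largest gain, 1.54 points, with adjusted p of 0.975 and 0.938. The tile with the largest gain in Tcrg, near Trgj2, differed by 1.77 points (adjusted p of 0.933). No tile of the loci differed by 10 points or more, and the median tile difference was 0.456 points, against 0.174 over all tiles.

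Mean methylation over the cytosines listed in all 6 libraries, each weighted equally, overlapped between the genotypes in the 3 loci together and in each locus. Over 185 cytosines of the 3 loci the library means were 84.9%, 84.1% and 83.3% in KO and 82.3%, 83.6% and 83.8% in WT. They overlapped, at 84.1% ± 0.809 in KO and 83.3% ± 0.835 in WT (SD, n = 3 each), a difference of 0.830 points (two-sided exact permutation p = 0.4, where 3 against 3 libraries cannot go below 0.1). At Tcra/Tcrd 96 cytosines averaged 88.7%, 89.1% and 87.2% in KO and 84.6%, 87.1% and 88.1% in WT, a difference of 1.71 points (exact permutation p = 0.2). Without WT 1 the difference was 0.708 points over the same 96 and -0.124 over the 220 cytosines that could then be used. With reads pooled over the 96, the libraries were at 85.8%, 87.9% and 83.5% in KO and 79.8%, 80.5% and 83.0% in WT. The overlap was lost there, and KO was 4.70 points higher (exact permutation p = 0.1). In the same pooling, all cytosines outside the T cell receptor and immunoglobulin loci were 4.90 points higher in KO, also without overlap. Over all 358 cytosines of the 3 loci, each weighted equally, the means were 87.0%, 87.1% and 86.9% in KO and 82.8%, 86.7% and 86.8% in WT. KO was 1.58 points higher without overlap (exact permutation p = 0.1). Here the libraries averaged different cytosines, since WT 1 listed 205 of the 358 and the others between 339 and 357. The gap lay mostly in WT 1, with WT 2 and WT 3 close to KO. Without WT 1 the 3 loci differed by 0.351 points over the same 185 cytosines and by -0.0371 over those then listed. The Tcrb means, over 68 cytosines, were 78.0%, 74.9% and 75.4% in KO and 75.1%, 76.4% and 76.1% in WT, 0.225 points apart (exact permutation p = 0.9). Those of Tcrg, over 21, were 89.9%, 91.2% and 90.8% in KO and 95.1%, 91.1% and 89.4% in WT, -1.25 points apart (exact permutation p = 0.8). Without WT 1 the difference at Tcrg was 0.371 over the same cytosines and 0.881 over the 25 then listed.

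**Figure D4:**
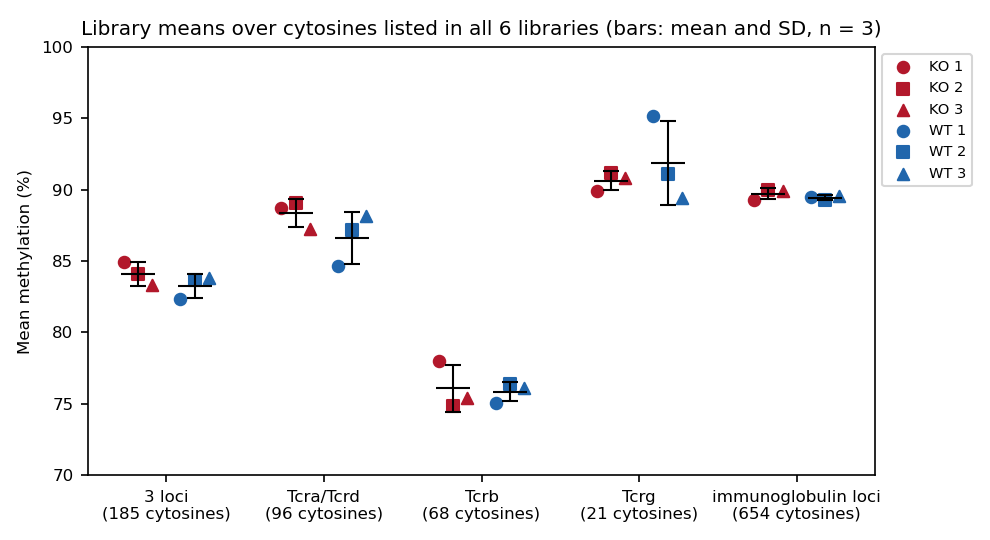
Mean methylation (%) per library over the cytosines listed in all 6 libraries, KO libraries left and WT libraries right in each group; horizontal bars are the mean and whiskers the SD of 3 libraries, and the axis starts at 70%. KO and WT overlap in each T cell receptor locus, WT 1 being the lowest library at Tcra/Tcrd (84.6%) and the highest at Tcrg (95.1%).

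By position, only the 20 cytosines in or within 1 kb of other genes in the intervals had no overlap. Most of them lay inside the noncoding RNA gene Gm30275 or outside but within 1 kb of another, Gm30392. The 20 were at 93.9%, 96.6% and 94.3% in KO, against 88.4%, 93.3% and 91.8% in WT, 3.80 points higher in KO (exact permutation p = 0.1, the smallest possible). Without WT 1 the difference was 2.42 points over the same 20 and 0.690 over the 45 cytosines then listed. The 39 cytosines at D, J and C segments differed by 2.38 points (p = 0.5), the 9 at V segments by -1.35 (p = 0.5) and the 117 between genes by -0.0258 (p = 1), each by the two-sided exact permutation test. Without WT 1 these differences were 0.509, 0.0332 and -0.0305 points over the same cytosines, and 0.277, -0.414 and -0.219 over the 44, 25 and 204 then listed. With reads pooled, the genotypes did not overlap at V segments (-7.07 points) or between genes (2.82 points), each with an exact permutation p of 0.1. By level, the 125 cytosines at 90% or more were at 96.3% ± 0.441 in KO and 95.5% ± 0.316 in WT (SD, n = 3 each), 0.816 points higher in KO with no overlap (exact permutation p = 0.1), and without WT 1 0.660 points higher over the same cytosines and 0.225 over the 237 then listed. Over all cytosines outside the T cell receptor and immunoglobulin loci, KO was likewise higher with no overlap, at 33.7% ± 0.112 in KO and 33.3% ± 0.112 in WT (SD, n = 3 each), 0.344 points apart. The 3 loci minus these differed by 0.486 points between KO and WT (exact permutation p = 0.5). Within the span of Tcrd, 17 cytosines averaged 95.2% ± 0.992 in KO and 91.4% ± 3.42 in WT (SD, n = 3 each), a difference of 3.80 points (exact permutation p = 0.1). Most of these 17 were also among the 20 in or within 1 kb of other genes, so this is not a separate result. WT 1 was at 87.4%, and without it the difference over the same cytosines was 1.83 points.

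Set against the immunoglobulin loci, which B cells do rearrange, the T cell receptor loci together had a lower mean in each of the 6 libraries. The immunoglobulin mean over 654 cytosines was 89.7% ± 0.375 in KO and 89.4% ± 0.156 in WT (SD, n = 3 each). The difference was -4.39, -5.90 and -6.62 points in KO and -7.20, -5.63 and -5.71 in WT (two-sided exact sign-flip test over 6 libraries, p = 0.0312, the smallest possible). Every library reads the same cytosines, so this p covers repetition across libraries and not the choice of cytosines. Tcrb stood farthest from the immunoglobulin loci, by -13.6 points on average, and Tcra/Tcrd by -2.10, both lower in 6 of 6 libraries, whereas Tcrg was higher in 5 of 6, by 1.68. For the loci together it came to -2.02 points without WT 1, which let 318 cytosines enter, and to -3.25 over all 358, while the medians of both sets of loci were both 95%. KO and WT did not differ in this contrast beyond their spread, at -5.64 ± 1.14 in KO and -6.18 ± 0.888 in WT (SD, n = 3 each; exact permutation p = 0.6).

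The genes that act on the loci were examined by the tiles in their bodies and 1 kb on each side. Of 12 genes of V(D)J recombination, among them the recombinase gene Rag1, the joining factors Xrcc4, Xrcc5, Xrcc6 and Lig4, and Dntt, which adds nucleotides at the joins, 11 had tiles. The quasi-binomial test called none of their 34 tiles, and none had an unadjusted p under 0.05 in either direction (0 of 34, against 7.19% of all tiles). Rag1 was at 80.8% ± 1.42 in KO and 79.6% ± 1.36 in WT, and Lig4 at 0.154% ± 0.0981 in KO and 0.137% ± 0.0197 in WT (SD, n = 3 each). Of 14 genes of the T cell receptor complex and its proximal signalling, 11 had tiles, and 0 of 36 was called, with 5 higher and 1 lower in KO at an unadjusted p of less than 0.05, where all tiles had 5.73% and 1.46%. The kinase gene Zap70, with 3 of those higher and the 1 lower, was at 88.9% ± 1.67 in KO and 87.7% ± 0.791 in WT, and the kinase gene Lck at 31.9% ± 0.199 in KO and 31.9% ± 0.184 in WT (SD, n = 3 each). Among 26 protein-coding genes in or within 50 kb of the intervals, 6 had tiles, and 0 of 17 tiles was called, with 1 higher and 0 lower at that p, the 1 being in Dad1. Dad1 was at 12.1% ± 0.787 in KO and 12.1% ± 1.36 in WT (SD, n = 3 each).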

How the data were processed

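ERRBS libraries of spleen naive B cells were processed with Bismark on GRCm38, per the submitters' processing notes. Trimming and duplicate removal are among the steps not given in the sources used here. Per the file headers, each deposited table gives 1 line per CpG cytosine and strand, with the read count as coverage and the percent of reads with C and with T. Every count is at least 10, and the deposited values are not normalized. C and T counts were recovered as percent times coverage; 100% of values were whole to the precision of the deposited decimals, and between 0.0178% and 0.0190% of reads per library, with another base, were left out. 5-hydroxymethylcytosine is read as C as well. Reads have no molecular identifiers, so intervals and limits cover counting error only.

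Cytosines listed in at least 2 KO and 2 WT libraries, and 1 kb tiles with at least 3 cytosines listed in all 6, were fitted genome-wide with a quasi-binomial model, the overdispersion moderated with limma 3.58.1 (R 4.3.3) and held at 1 or above, and tested on simulated data. Library means weight cytosines equally and were compared by exact permutation. Gene positions, without strand, are those of RefSeq (GRCm38.p6); no genome sequence was used. Named tiles were, per locus, those with the smallest p, the largest gain and loss and the lowest methylation. Members, gene lists and this rule were chosen with earlier results of these data known. Alternatives covered coverage, strands, weighting, moderation, limma on log2 ratios of the deposited counts, libraries left out and pairing by number.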

Additional observations from a re-analysis of the deposited data

How the results depend on the processing

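No alternative called a cytosine or tile of the loci, the replicate block included (0 of each). Differences below are KO minus WT in points, and the cause of each move was not tested. With all reads pooled, the difference was 1.94 for the 3 loci, 4.70 for Tcra/Tcrd, -7.07 at V segments, 2.82 between genes and -2.96 for the 3 loci minus all other cytosines. Apart from the 3 loci, none of these overlapped between the genotypes. Between genes it was 0.699 over cytosines listed in at least 2 libraries of each genotype. Leaving out 1 library at a time, it ranged from -0.0371 to 1.23 for the 3 loci, -0.124 to 2.46 for Tcra/Tcrd, -2.50 to 0.881 for Tcrg, 0.690 to 4.86 in other genes, -3.55 to 1.60 for cytosines below 30%, -1.40 to 2.51 for those from 70% to 90%, 0.225 to 0.972 for those at 90% or more, and -0.318 to 0.822 for the 3 loci minus all other. The lower ends were reached without WT 1, except for Tcrg, which had its upper end there, and for cytosines below 30%, lowest without WT 3. Leaving out a library also adds cytosines that it did not list; without WT 1 but over the same cytosines, also chosen after seeing the data, the 3 loci differed by 0.351 and Tcra/Tcrd by 0.708. The level of the 3 loci ranged from -6.21 to -2.02 against the immunoglobulin loci and from 49.9 to 53.4 against all other cytosines, each with the smallest sign-flip p that 5 libraries allow, 0.0625. Without KO 2 and WT 3, an alternative chosen after seeing the data, these levels were -5.11 and 50.5 (p = 0.125, the smallest that 4 libraries allow, exact sign-flip test). Same-numbered libraries did not pair (correlations of tile deviations from -0.0293 to 0.0481). With the replicate block, 11 cytosines of the loci were higher and 5 lower in KO at an unadjusted p under 0.05, of 331 tested. Together they were 4.83%, against 2.63% over the genome. The 3 loci had an exact sign-flip p of 0.75 over 3 pairs. Over the genome the block called 107 cytosines higher and 13 lower in KO, against 5 and 0 without it. Depth also limits the values: a count of 0 summed over both cytosines of Trdv2-2 allows levels of up to 9.38% in KO 1 and 13.6% in WT 2.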
